A study of Mus musculus with 5 samples.

Results

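The major histocompatibility complex (MHC) genes and the genes of the antigen processing machinery were followed in Cxcl12-GFPhigh tdTomato+ cells of the mouse femur. They were chosen by symbol and gene type, under a rule set with earlier results of these data known. The rule took the protein-coding genes whose symbol begins with H2-, together with B2m, Tap1, Tap2, Tapbp, Cd74, Ciita, Nlrc5, Psmb8, Psmb9, Psmb10, Psme1 and Psme2. This gave 41 genes of the 17087 protein-coding genes counted. Of these, 29 belong to the class I arm, 11 to the class II arm and 1, H2-Ke6, to neither, since it encodes a hydroxysteroid dehydrogenase and carries the prefix only for its position in the MHC. The MHC lies on chromosome 17, where 34 of the 41 genes are found.

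The study compared marrow stromal cells derived from fetal perichondrium with those derived from fetal chondrocytes by bulk RNA-seq of sorted cells. Every mouse carried the Cxcl12(GFP/+) and R26R(tdTomato/+) reporters, tamoxifen was given once at E12.5, and femurs were taken at postnatal day 21. Dlx5CE-E12.5 cells (3 libraries, replicates 1 to 3) came from mice with Dlx5(CreER/+), and Fgfr3CE-E12.5 cells (2 libraries, numbered 2 and 3 in the labels) from mice with the Fgfr3-iCreER transgene. Cells were pooled from littermates of a genotype before sorting, so a library stands for a pool and not for a single animal.

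The tdTomato label marks cells in which the Cre was active at the pulse and all their descendants, and one Cre line stands for each lineage. All mice were heterozygous for the GFP insertion at Cxcl12. According to the paper, the mice were of mixed background, and the female breeders differed in strain background, with FVB/N among the backgrounds used. The strain background of each library and the MHC haplotype of the mice are not given in the sources used here. Total counts were 22035650 to 32563758 in the Dlx5CE-E12.5 libraries and 56355203 to 58166285 in the Fgfr3CE-E12.5 libraries. According to the methods, Dlx5CE-E12.5 libraries were read as 150-base pairs on a NovaSeq and Fgfr3CE-E12.5 libraries as single 50-base reads on a HiSeq, while the labels name a HiSeq for all. Lineage and sequencing run therefore cannot be told apart. Markers of stromal CXCL12-abundant reticular (CAR) cells were present in every library, with 7 of 10 called higher in Dlx5CE-E12.5 and 1 higher in Fgfr3CE-E12.5 cells. In bulk samples, fewer cells of a type and less RNA per cell cannot be told apart.

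MHC class I molecules are carried by nearly all nucleated cells and show peptides made from the cell's own proteins to CD8 T cells. Proteasomes cut the proteins, the TAP transporter moves the peptides into the endoplasmic reticulum, and tapasin helps to load them onto a heavy chain paired with beta-2-microglobulin. MHC class II molecules show peptides from taken-up material to CD4 T cells and are made mainly by B cells, dendritic cells and macrophages, under control of the coactivator CIITA. NLRC5 is the related coactivator of class I genes, and interferon gamma raises both arms in many cell types, stromal cells included.

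Class I heavy chain genes resemble each other closely, which bears on how short reads are assigned to them. The 50-base stretch of coding sequence found in the most class I members is shown because it marks where a short read cannot be given to 1 gene. It lies at chr17:35265834-35265883 of GRCm38 (mm10), plus strand, within H2-D1, in the part of the gene that encodes the conserved alpha-3 domain, and it occurs in 8 class I genes, H2-D1, H2-K1, H2-Q1, H2-Q2, H2-Q6, H2-Q7, H2-T23 and H2-T24. No letters are in capitals because the whole window is identical in the 8 genes.
shared class I window: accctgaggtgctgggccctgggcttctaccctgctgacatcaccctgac

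The share of each gene's 50-base transcript windows that also occur in another gene was 12.8% for H2-D1, 9.63% for H2-K1 and 0% for B2m. It was highest among the heavy chains for H2-T22, at 53.5%, with H2-T10 as the main partner. With 150-base windows the shares fell to 1.35% for H2-D1 and 22.3% for H2-T22. The 2 read lengths thus differed in how much of these genes they could place, and the share for each heavy chain tested is given here or beside its result.

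**Figure D1:**
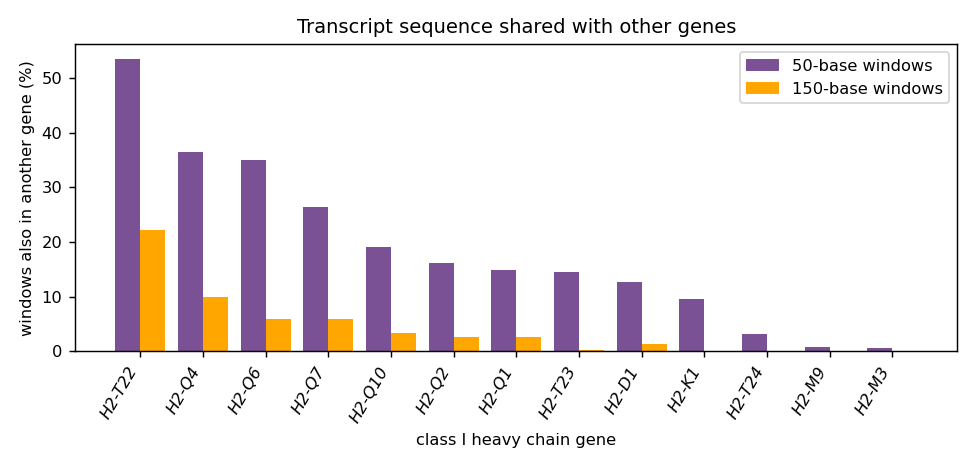
Share of transcript windows (%, y axis) that also occur in another gene for each class I heavy chain gene tested (x axis), in 50-base windows (purple) and 150-base windows (orange). H2-T22 is highest at 53.5% and 22.3%, while H2-D1 falls from 12.8% to 1.35%.

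The 200 bases before the annotated start (RefSeq, GRCm38.p6) are shown for 4 heavy chain genes (2 called higher in Dlx5CE-E12.5, 1 called higher in Fgfr3CE-E12.5 and 1 not called), for B2m and for 2 class II chain genes. Capitals mark matches on either strand to 3 motifs of MHC promoters. They are the NF-kB site (GGGATTTCC or GGGGATTCC) and the Y box bound by NF-Y (CTGATTGG, which reads CCAATCAG on the other strand). The third is a form of the interferon response element (GAAANNGAA), and other spacings of it are left in lower case. Intervals are chr17:35262894-35263093 (plus strand) for H2-D1, chr17:34000348-34000547 (minus) for H2-K1, chr17:35379417-35379616 (plus) for H2-Q4, chr17:35342107-35342306 (plus) for H2-Q2, chr2:122147487-122147686 (plus) for B2m, chr17:34287824-34288023 (minus) for H2-Aa and chr17:34305667-34305866 (plus) for H2-Eb1.
H2-D1: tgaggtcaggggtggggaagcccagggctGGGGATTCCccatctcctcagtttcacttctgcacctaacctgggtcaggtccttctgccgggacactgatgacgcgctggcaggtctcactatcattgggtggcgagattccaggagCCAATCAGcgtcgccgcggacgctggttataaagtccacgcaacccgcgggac
H2-K1: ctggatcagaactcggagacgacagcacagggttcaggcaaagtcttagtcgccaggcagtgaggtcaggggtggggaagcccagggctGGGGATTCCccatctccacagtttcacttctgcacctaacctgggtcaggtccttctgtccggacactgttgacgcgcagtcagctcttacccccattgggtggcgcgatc
H2-Q4: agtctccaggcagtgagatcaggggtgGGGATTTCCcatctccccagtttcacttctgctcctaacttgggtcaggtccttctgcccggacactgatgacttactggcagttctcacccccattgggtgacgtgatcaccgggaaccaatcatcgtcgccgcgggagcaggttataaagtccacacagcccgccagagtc
H2-Q2: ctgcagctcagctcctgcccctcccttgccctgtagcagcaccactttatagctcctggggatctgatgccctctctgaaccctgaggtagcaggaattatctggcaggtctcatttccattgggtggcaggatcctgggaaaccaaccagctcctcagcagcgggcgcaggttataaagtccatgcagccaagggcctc
B2m: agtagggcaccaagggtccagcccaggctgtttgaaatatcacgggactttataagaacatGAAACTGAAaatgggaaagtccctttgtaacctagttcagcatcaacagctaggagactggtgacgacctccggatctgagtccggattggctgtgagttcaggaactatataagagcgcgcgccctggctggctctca
H2-Aa: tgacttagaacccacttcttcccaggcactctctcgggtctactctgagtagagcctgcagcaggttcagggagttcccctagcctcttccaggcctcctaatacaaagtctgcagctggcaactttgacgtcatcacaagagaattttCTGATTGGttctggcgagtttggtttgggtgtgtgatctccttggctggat
H2-Eb1: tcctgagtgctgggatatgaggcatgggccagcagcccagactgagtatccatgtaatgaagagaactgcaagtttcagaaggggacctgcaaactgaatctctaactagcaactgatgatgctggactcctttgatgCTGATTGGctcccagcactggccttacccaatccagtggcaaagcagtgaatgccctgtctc

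Promoters (250 bases before to 50 after the start) were matched for 34 of the 41 genes. The Y box was found in 10 of 25 class I genes and in 4 of 8 class II genes, against 4.10% of all 32851 promoters. The NF-kB site was found in 5 of 25 class I genes (H2-D1, H2-K1, H2-Q4, H2-Q6 and H2-Q7) and 0 of 8 class II genes, against 0.572% of all promoters. These 5 genes include 2 called higher in Dlx5CE-E12.5 cells, 1 called higher in Fgfr3CE-E12.5 cells and 2 that were not called, so the motif did not divide the genes by direction. The interferon response motif was found in 4 class I genes, B2m, H2-T22, H2-T23 and Psme1, and in no class II gene, against 8.56% of all promoters. The window of H2-Q2 held none of these motifs, and the Y box of H2-K1 lies at positions 8 to 15 after this start.

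The first question was how strongly the 2 lineages express the class I arm. The classical heavy chain genes H2-D1 and H2-K1 and the light chain gene B2m were among the most abundant transcripts in these stromal cells. Per kilobase of transcript, H2-D1 ranked 8 of 10088 genes in Dlx5CE-E12.5 cells, with a mean of 2903 normalized CPM per kb (CPM, the count scaled to library size), and 12 in Fgfr3CE-E12.5 cells, with a mean of 1412. B2m ranked 10 and 14, and H2-K1 ranked 37 and 63. Class I heavy chains, summed over the 19 genes, were lower in both Fgfr3CE-E12.5 libraries than in any Dlx5CE-E12.5 library, at 6029 and 4717 against 10942, 10345 and 10750 normalized CPM. Skeletal markers differed between the same libraries. Chondrocyte markers summed to 133, 125 and 128 normalized CPM in Dlx5CE-E12.5 and 3078 and 416 in Fgfr3CE-E12.5 libraries (1 of 2 that passed the filter called higher in Fgfr3CE-E12.5). Most of the Dlx5CE-E12.5 sums came from Sox9, which was lower in Fgfr3CE-E12.5 libraries and not called (124, 117 and 122 against 96.8 and 53.7). Most of the Fgfr3CE-E12.5 sums came from Col2a1, at 2598 and 343. Osteoblast markers summed to 5238, 4026 and 3726 against 7218 and 9677 (4 of 6 called higher in Fgfr3CE-E12.5). The part of chondrocyte and osteoblast markers in the class I values was not tested.

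H2-D1 was measured at 7181, 7487 and 7792 normalized CPM in Dlx5CE-E12.5 replicates 1, 2 and 3 and at 3976 and 3308 in Fgfr3CE-E12.5 replicates 2 and 3. The 3 Dlx5CE-E12.5 libraries lay close together, and every one was above both Fgfr3CE-E12.5 libraries. The log2 fold change of Fgfr3CE-E12.5 over Dlx5CE-E12.5 was -1.04 (SE 0.19), with an adjusted p of 0.00402 by the quasi-likelihood test of edgeR (Benjamini-Hochberg adjusted), which was used for every gene that follows. A gene was called when its adjusted p lay under 0.05 and its log2 fold change beyond 1 in either direction. H2-D1 crossed the fold threshold narrowly, and without Fgfr3CE-E12.5 replicate 3 its log2 fold change was -0.85 (adjusted p = 0.0193).

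H2-K1, the other classical heavy chain gene, was measured at 3142, 2359 and 2429 normalized CPM in Dlx5CE-E12.5 and at 1493 and 1004 in Fgfr3CE-E12.5 libraries. The groups did not overlap, with Dlx5CE-E12.5 replicate 1 highest and Fgfr3CE-E12.5 replicate 3 lowest. The log2 fold change was -1.08 (SE 0.24, adjusted p = 0.00987 by edgeR). It was -0.76 (adjusted p = 0.0507) without Fgfr3CE-E12.5 replicate 3 and -0.94 (adjusted p = 0.0233) without Dlx5CE-E12.5 replicate 1, both short of the call.

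B2m encodes the light chain shared by all class I molecules, and none of its windows occur in another gene. Its levels were 2568, 2125 and 2053 normalized CPM in Dlx5CE-E12.5 and 1527 and 731 in Fgfr3CE-E12.5 libraries. The groups did not overlap, but the 2 Fgfr3CE-E12.5 libraries were far apart. The log2 fold change of -0.99 (SE 0.32, adjusted p = 0.0383 by edgeR) passed the p threshold and not the fold threshold. It ranged from -1.55 without Fgfr3CE-E12.5 replicate 2 to -0.50 (adjusted p = 0.107) without Fgfr3CE-E12.5 replicate 3. B2m overlaps Patl2 on the opposite strand, and the strand setting of the counting is not given in the sources used here.

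**Figure D2:**
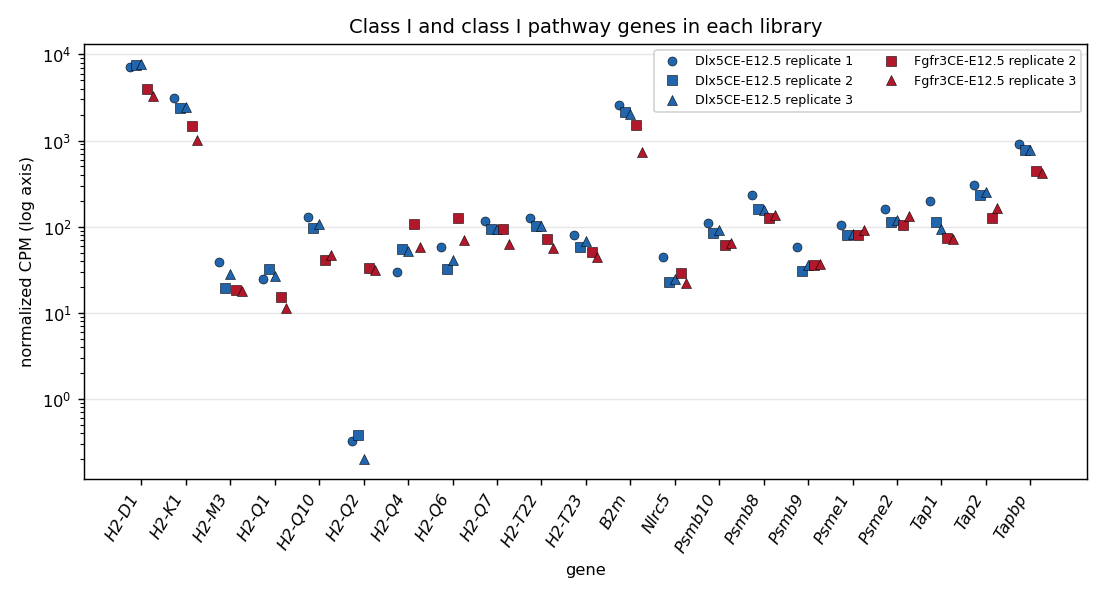
Normalized CPM (y axis, log scale) of the 21 class I heavy chain and pathway genes that passed the filter (x axis), with 1 point per library, blue for Dlx5CE-E12.5 and red for Fgfr3CE-E12.5, and the symbol shape for the replicate number. Blue points lie above red ones for H2-D1, H2-K1, B2m, Tapbp and 10 other genes, and far below for H2-Q2.

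The non-classical (class Ib) heavy chain genes moved in both directions. Of 17 genes, 9 passed the filter (10 CPM or more in 2 or more libraries), 2 were called higher in Dlx5CE-E12.5 cells and 2 higher in Fgfr3CE-E12.5 cells. Across all 10088 genes tested, 13.1% were called higher in Dlx5CE-E12.5 and 16.4% higher in Fgfr3CE-E12.5 cells. Summed class Ib levels overlapped, at 619, 500.1 and 529 against 560.0 and 405 normalized CPM, so that classical genes made up 94.3% to 95.2% of heavy chain CPM in Dlx5CE-E12.5 and 90.7% and 91.4% in Fgfr3CE-E12.5 libraries.

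H2-Q10, which encodes a secreted class I molecule known mainly from liver, was measured at 129, 96.1 and 107 normalized CPM in Dlx5CE-E12.5 and at 40.8 and 46.6 in Fgfr3CE-E12.5 libraries. All Dlx5CE-E12.5 libraries were higher, with a log2 fold change of -1.34 (SE 0.17, adjusted p = 0.00103 by edgeR), and this call held when any 1 library was left out. The gene shares 19.1% of its 50-base windows, most of them with H2-Q7. H2-Q1 was measured at 24.9, 31.8 and 26.9 against 15.1 and 11.4 normalized CPM, again without overlap. Its log2 fold change was -1.07 (SE 0.22, adjusted p = 0.00627 by edgeR), with 15.0% of windows shared, and fell under the fold threshold without Dlx5CE-E12.5 replicate 2 (-0.97) or Fgfr3CE-E12.5 replicate 3 (-0.82).

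H2-Q2 showed the largest difference of the 34 genes tested. It had 10, 8 and 5 counts in the Dlx5CE-E12.5 libraries and 2020 and 1969 in the Fgfr3CE-E12.5 libraries, or 0.326, 0.377 and 0.199 against 32.8 and 31.1 normalized CPM. The gene was near the floor in 1 lineage and clearly counted in the other, with a log2 fold change of 6.72 (SE 0.30, adjusted p = 4.09e-05 by edgeR). H2-Q2 passed the filter only through the Fgfr3CE-E12.5 libraries, so its p-value and its call rest on that selection. Of its 50-base windows 16.1% occur in another gene, most often H2-Q1, and 2.56% of its 150-base windows do. H2-Q1 was lower in the Fgfr3CE-E12.5 libraries, and whether reads were assigned from 1 of these genes to the other was not tested. The part of read length and of MHC haplotype in the H2-Q2 difference was not tested.

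H2-Q6 was measured at 58.6, 32.5 and 40.4 normalized CPM in Dlx5CE-E12.5 and at 125 and 69.7 in Fgfr3CE-E12.5 libraries, so both Fgfr3CE-E12.5 libraries were higher but unlike each other. Its log2 fold change was 1.15 (SE 0.31, adjusted p = 0.0214 by edgeR), and the call was lost without Dlx5CE-E12.5 replicate 2 (adjusted p = 0.0617), Dlx5CE-E12.5 replicate 3 (adjusted p = 0.0557) or Fgfr3CE-E12.5 replicate 2 (adjusted p = 0.105). H2-Q4 had 29.3, 54.6 and 51.5 against 106 and 57.2 normalized CPM, with the lower Fgfr3CE-E12.5 library just above the highest Dlx5CE-E12.5 library, and its log2 fold change of 0.86 (adjusted p = 0.0739) did not pass. Its 50-base windows were shared at 36.4%, and those of H2-Q6 at 35.0%, the highest shares among the heavy chains after H2-T22.

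H2-Q7, a neighbour of H2-Q6 that encodes part of the Qa-2 antigen, was measured at 117, 94.5 and 94.1 against 93.2 and 62.5 normalized CPM, with groups that barely separated and a log2 fold change of -0.39 (adjusted p = 0.162). It shares 26.5% of its 50-base windows, most often with H2-Q10. H2-T23, which encodes Qa-1, the ligand of the NKG2 receptors of natural killer cells, was at 79.2, 58.2 and 67.8 against 50.1 and 44.8 normalized CPM. It was lower in both Fgfr3CE-E12.5 libraries, with a log2 fold change of -0.53 (SE 0.17, adjusted p = 0.0400 by edgeR), within the fold threshold, and 14.5% of its windows are shared. H2-T22, a ligand of some gamma delta T cell receptors, was at 126, 102 and 102 against 70.9 and 56.9 normalized CPM. Its log2 fold change was -0.79 (SE 0.17, adjusted p = 0.00847), though more than any other heavy chain it shares its sequence.

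H2-M3, which presents formylated peptides, was at 38.6, 19.2 and 28.2 against 18.5 and 18.1 normalized CPM, with a log2 fold change of -0.65 that did not pass (adjusted p = 0.109). Few 50-base windows were shared for H2-M3 (0.576%), H2-M9 (0.903%) and H2-T24 (3.17%). Of the others, 2 class Ib genes were fitted only at a lower filter (1 CPM or more in 2 or more libraries), under which 16.6% of 13225 genes were called higher in Fgfr3CE-E12.5 and 12.9% higher in Dlx5CE-E12.5 cells. H2-T24 had 334, 198 and 221 counts in Dlx5CE-E12.5 and 387 and 348 in Fgfr3CE-E12.5 libraries, with a log2 fold change of -0.74 (adjusted p = 0.0506). H2-M9 had 145, 16 and 33 against 38 and 18 counts, and its log2 fold change of -2.36 (SE 0.93, adjusted p = 0.0787) did not pass, with Dlx5CE-E12.5 replicate 1 far above the other 4 libraries. The remaining 6 class Ib genes, H2-M2, H2-M5, H2-M10.1, H2-M10.2, H2-M11 and H2-T3, had between 0 and 34 counts in a library and were not tested. A count of 0 allows up to 3 counts in a library, which covers counting error only.

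Of the 10 class I pathway genes, all passed the filter and none was called. Their log2 fold changes were all below 0, but 3 of them (Psmb9, Psme1 and Psme2) were above 0 with library size alone as the scaling, and 4 (these and Nlrc5) without Dlx5CE-E12.5 replicate 1. At an adjusted p under 0.05 alone, 4 were lower in Fgfr3CE-E12.5 cells, namely B2m, Tapbp, Tap2 and Psmb10, where 23.4% of all genes were. Tapbp, which encodes tapasin, was at 901, 775 and 781 normalized CPM in Dlx5CE-E12.5 and 437 and 425 in Fgfr3CE-E12.5 libraries, with both groups tight and well apart. Its log2 fold change was -0.93 (SE 0.15, adjusted p = 0.00283 by edgeR). Tapbp overlaps Zbtb22 on the same strand.

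The TAP transporter genes lie in the MHC on either side of Psmb8. Tap2 was at 303, 232 and 250.3 against 127 and 166 normalized CPM, without overlap, and its log2 fold change was -0.84 (SE 0.19, adjusted p = 0.00948 by edgeR). Tap1 was at 196, 112 and 92.7 against 74.4 and 71.2 normalized CPM. Its Dlx5CE-E12.5 replicate 1 stood above the other 4 libraries, and the log2 fold change of -0.88 (SE 0.31) did not pass (adjusted p = 0.0540), whereas without Dlx5CE-E12.5 replicate 3 it was -1.09 (adjusted p = 0.0209).

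Psmb8, Psmb9 and Psmb10 encode the catalytic subunits of the immunoproteasome, which replace those of the constitutive proteasome. Psmb10 was at 111, 85.3 and 91.6 against 61.1 and 64.4 normalized CPM, with no overlap and a log2 fold change of -0.61 (SE 0.16, adjusted p = 0.0166 by edgeR). Psmb8 was at 233, 158 and 157 against 127 and 137 normalized CPM, and its log2 fold change of -0.47 (adjusted p = 0.100) did not pass. Psmb9 was at 58, 30.2 and 36.1 against 36.0 and 36.9 normalized CPM, so the groups overlapped (log2 fold change -0.19, adjusted p = 0.608).

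Psme1 and Psme2, which encode the PA28 activator of the proteasome, had log2 fold changes of -0.05 (SE 0.17) and -0.15 (SE 0.19), and their libraries overlapped between lineages. For Psme2, 28.3% of 50-base windows occur in another gene, mostly Psme2b. Nlrc5, the coactivator of class I genes, was at 44.3, 22.7 and 24.8 against 29.0 and 22.2 normalized CPM, with a log2 fold change of -0.26 (SE 0.32, adjusted p = 0.530). The groups overlapped, with Dlx5CE-E12.5 replicate 1 highest and the other 4 libraries between 22.2 and 29.0.

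Over the 21 class I genes that passed the filter, the median log2 fold change was -0.61, against 0.01 over all genes. The value was below 0 for 18 and above 0 for 3 (H2-Q2, H2-Q4 and H2-Q6), and with library size alone below 0 for 15. Dlx5CE-E12.5 libraries were all above Fgfr3CE-E12.5 libraries for 14 of the 21 genes, or 66.7%, where this held for 34.1% of all genes, and the reverse held for 3, or 14.3%, where it did for 34.8% of all genes. In either direction, 68.9% of all genes had groups that did not overlap. By the call rule, 4 of 21 were higher in Dlx5CE-E12.5 cells, or 19.0%, beside 13.1% of all genes, and 2 were higher in Fgfr3CE-E12.5 cells, or 9.52%, beside 16.4%. At an adjusted p under 0.05 alone, 10 of 21 were higher in Dlx5CE-E12.5 cells, or 47.6%, beside 23.4% of all genes, and 2 higher in Fgfr3CE-E12.5 cells, beside 25% of all genes. With library size alone as the scaling, the median of all genes moved to 0.22 and that of class I genes to -0.40, and only H2-Q10 was called higher in Dlx5CE-E12.5 cells.

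**Figure D3:**
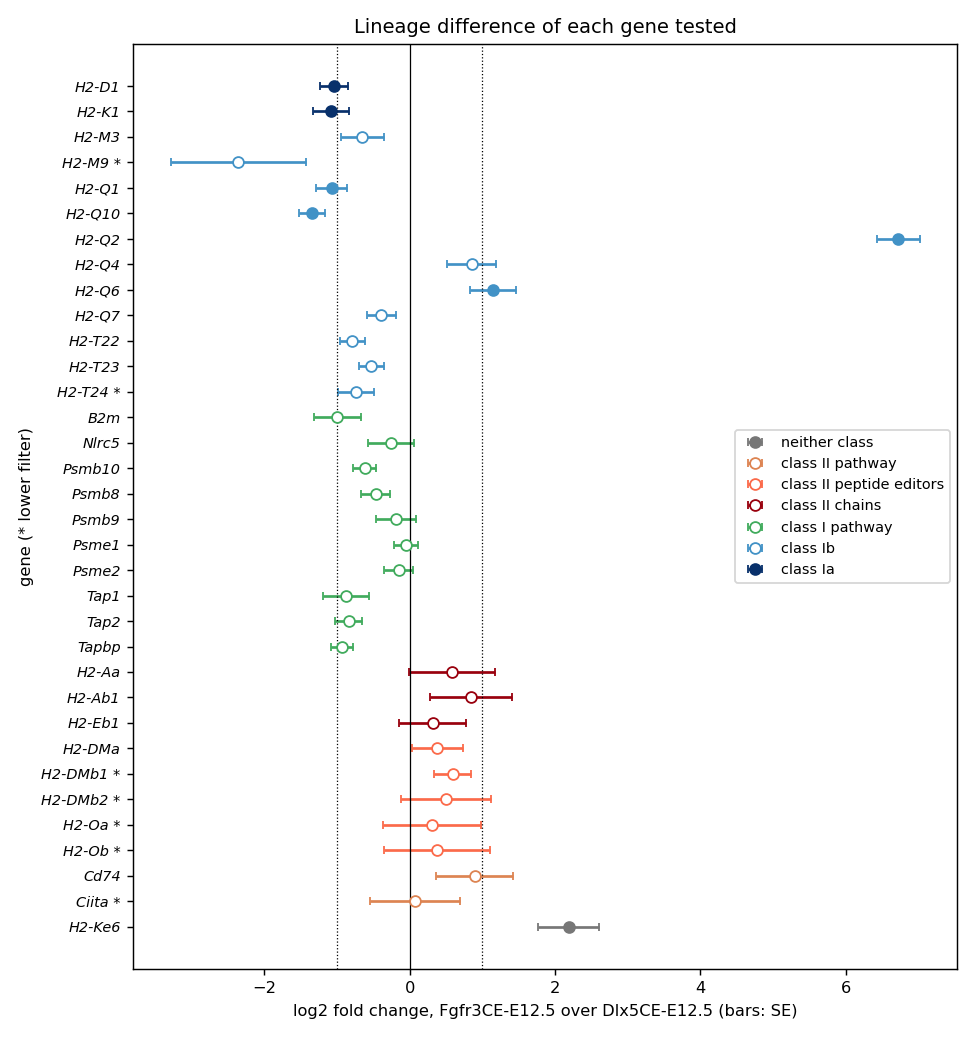
Log2 fold change of Fgfr3CE-E12.5 over Dlx5CE-E12.5 (x axis, bars are SE) for the 34 genes tested (y axis), coloured by class, with filled points for genes called, dotted lines at the fold threshold and an asterisk for the 7 genes fitted at the lower filter. Class I values lie mostly left of 0 and class II values right of 0 with wide bars, and H2-Q2 is far right at 6.72.

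The second question was whether class II transcripts are present and differ. They were far less abundant than class I. Summed class II chains (H2-Aa, H2-Ab1, H2-Eb1 and H2-Eb2) reached 68.4, 18.9 and 24.3 normalized CPM in Dlx5CE-E12.5 and 46.7 and 72.5 in Fgfr3CE-E12.5 libraries. Relative to the class I heavy chain sum, class II was lowest in Dlx5CE-E12.5 replicates 2 and 3 and highest in Fgfr3CE-E12.5 replicate 3. Per kb, Cd74 ranked 710 of 10088 genes in Dlx5CE-E12.5 and 307 in Fgfr3CE-E12.5 cells, and H2-Ab1 ranked 4994 and 3597.

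None of the 5 class II genes that passed the filter was called, and 0 of 5 had an adjusted p under 0.05, beside 29.5% of all genes called and 48.4% under that p in either direction. Their log2 fold changes were all above 0, with a median of 0.58, and in every one the libraries of the 2 lineages overlapped. Cd74, which encodes the invariant chain that guides class II molecules through the cell, was at 189, 56.0 and 64.0 normalized CPM in Dlx5CE-E12.5 and 143 and 240.4 in Fgfr3CE-E12.5 libraries. Dlx5CE-E12.5 replicate 1 lay between the 2 Fgfr3CE-E12.5 libraries, and the other 2 Dlx5CE-E12.5 libraries lay below both. The log2 fold change was 0.90 (SE 0.53, adjusted p = 0.201 by edgeR).

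H2-Ab1, the beta chain of the I-A molecule, was at 36.5, 8.52 and 13.6 against 26.7 and 43.7 normalized CPM (log2 fold change 0.84, SE 0.57, adjusted p = 0.257 by edgeR). H2-Aa, its alpha chain, was at 18.8, 4.33 and 5.65 against 12.9 and 16 (log2 fold change 0.58, SE 0.59, adjusted p = 0.452). Both chains had the order of Cd74 among the Dlx5CE-E12.5 libraries, with replicate 1 several times above the others, and for H2-Aa it was the highest of all 5. H2-Eb1, the beta chain of I-E, was at 12.6, 6.07 and 5.01 against 7.10 and 12.7 normalized CPM (log2 fold change 0.32, SE 0.46, adjusted p = 0.600).

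The editors H2-DM and H2-O control which peptides are loaded on class II, and H2-O is typical of B cells. H2-DMa was at 13.9, 7.86 and 6.68 against 11.1 and 13.7 normalized CPM (log2 fold change 0.38, SE 0.35, adjusted p = 0.404). The other 4 editor genes and Ciita were fitted at the lower filter, where 0 of these 5 were called. H2-Ob had 242, 27 and 54 counts in Dlx5CE-E12.5 and 245 and 384 in Fgfr3CE-E12.5 libraries, and H2-DMb2 had 175, 27 and 64 against 225 and 352. H2-DMb1 departed from this order, with 174, 156 and 164 against 663 and 579 counts. It was the only class II gene whose libraries did not overlap (log2 fold change 0.59, SE 0.25, adjusted p = 0.0989), and 22.7% of its 50-base windows occur also in another gene, mostly H2-DMb2.

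Ciita, the master coactivator of class II genes, had 82, 34 and 24 counts in Dlx5CE-E12.5 and 74 and 160 in Fgfr3CE-E12.5 libraries, or 2.67, 1.60 and 0.955 against 1.20 and 2.52 normalized CPM. Its log2 fold change of 0.07 (SE 0.62, adjusted p = 0.938) came from groups that overlapped widely. H2-Oa had 14 to 43 counts in Dlx5CE-E12.5 and 41 and 115 in Fgfr3CE-E12.5 libraries. H2-Eb2 had 14 counts in Dlx5CE-E12.5 replicate 1, 2 in Fgfr3CE-E12.5 replicate 3 and 0 elsewhere, and was not tested.

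**Figure D4:**
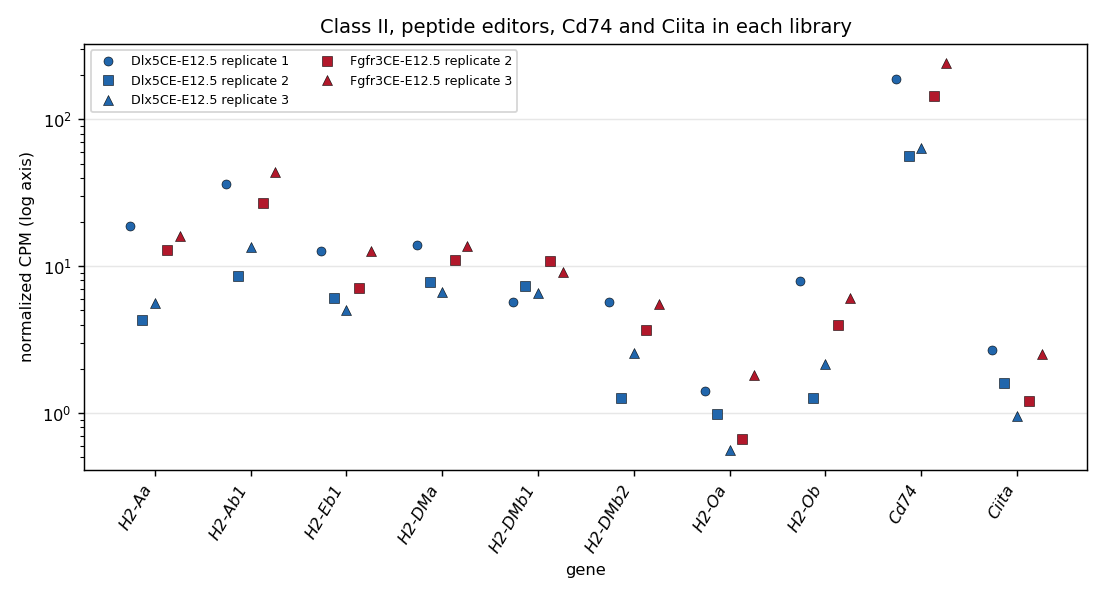
Normalized CPM (y axis, log scale) of the 10 class II genes tested in either fit (x axis), with 1 point per library, blue for Dlx5CE-E12.5 and red for Fgfr3CE-E12.5, and the symbol shape for the replicate number. Dlx5CE-E12.5 replicate 1 lies between the red points (as for Cd74 at 189) or above both for every gene but H2-DMb1, where it lies below both. Replicates 2 and 3 lie lower than replicate 1 except for H2-DMb1.

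The class II result turned on 1 library. Dlx5CE-E12.5 replicate 1 was the highest of its group for 9 of the 10 class II genes tested in either fit, with a median ratio of 2.63 over the mean of the other 2 libraries and a range of 0.819 to 4.62. For class I genes it was the highest for 19 of 23, with a median ratio of 1.26. Among all genes tested it was the highest for 39.6%, and the median ratio was 0.997. Without this library, Cd74 (log2 fold change 1.67, adjusted p = 0.00551), H2-Aa (1.53, adjusted p = 0.00641) and H2-Ab1 (1.67, adjusted p = 0.0121) were called higher in Fgfr3CE-E12.5 cells by edgeR. The class II genes called thus went from 0 of 5 to 3 of 4, as H2-Eb1 then failed the filter. Of all genes in that fit, 16.8% were called higher in Fgfr3CE-E12.5 cells. H2-DMa then reached 0.76 (adjusted p = 0.0459), within the fold threshold.

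Markers of the B lineage were also high in Dlx5CE-E12.5 replicate 1. The B cell receptor component Cd79a was at 81.3, 33.2 and 29.9 normalized CPM in Dlx5CE-E12.5 and 69.9 and 134 in Fgfr3CE-E12.5 libraries, so the same 3 libraries were high as for Cd74. Of 10 B lineage markers 9 were higher in Dlx5CE-E12.5 replicate 1 than in the mean of the other 2, with a median ratio of 2.51. The exception was Ebf1, which marrow stromal cells also express and which made up most of the list's sum in Dlx5CE-E12.5 libraries. The whole list summed to 980, 880.1 and 859 normalized CPM in Dlx5CE-E12.5 and 664 and 685 in Fgfr3CE-E12.5 libraries, lower in Fgfr3CE-E12.5, and without Ebf1, left out after its values were seen, to 282, 116 and 108 against 281 and 496. Pax5 was also high in Dlx5CE-E12.5 replicate 1 but lowest in the Fgfr3CE-E12.5 libraries, at 9.20, 3.72 and 3.02 against 2.89 and 2.79 normalized CPM (log2 fold change -0.93 at the lower filter, adjusted p = 0.207 by edgeR). Of the 8 B lineage markers that passed the filter, 3 were called higher in Fgfr3CE-E12.5 cells and 1, Ebf1, lower.

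The pan-leukocyte markers summed to 471, 414 and 369 normalized CPM in Dlx5CE-E12.5 and 1247 and 2573 in Fgfr3CE-E12.5 libraries, with 9 of 10 called higher in Fgfr3CE-E12.5 cells, as were 10 of 10 neutrophil markers. Of the neutrophil markers, 4 of 10 were higher in Dlx5CE-E12.5 replicate 1 than in the mean of the other 2, with a median ratio of 0.729. Macrophage and dendritic markers summed to 348, 467 and 431 against 1444 and 3287, with 5 of 7 called higher and 1, Zbtb46, called lower in Fgfr3CE-E12.5 cells (log2 fold change -1.48, adjusted p = 0.00193 by edgeR). In Dlx5CE-E12.5 replicate 1, 2 of the 9 tested in either fit were higher than in the mean of the other 2, with a median ratio of 0.833. The dendritic cell markers of this list went different ways. Siglech, a marker of plasmacytoid dendritic cells, had 35, 19 and 10 counts in Dlx5CE-E12.5 and 177 and 340 in Fgfr3CE-E12.5 libraries and was called higher in Fgfr3CE-E12.5 at the lower filter, and Flt3 had 0, 31 and 17 against 275 and 426 counts and was not called. Itgax had at most 5 counts in Dlx5CE-E12.5 libraries and 29 and 114 in Fgfr3CE-E12.5 libraries, Xcr1 had at most 15 counts in any library, and Clec9a was at 0 in both Fgfr3CE-E12.5 libraries. The part of blood cells in the class II values was not tested. Class I heavy chains were lower, and leukocyte sums higher, in the Fgfr3CE-E12.5 libraries. Stromal CAR markers summed to 32941, 34843 and 33940 normalized CPM in Dlx5CE-E12.5 and 13338.5 and 8758 in Fgfr3CE-E12.5 libraries. The part of the cell mix in the class I values was not tested.

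The ratio of Cd74 to B2m, a measure of class II against class I that does not depend on the scaling between libraries, was 0.0736, 0.0264 and 0.0312 in Dlx5CE-E12.5 and 0.0938 and 0.329 in Fgfr3CE-E12.5 libraries. The Fgfr3CE-E12.5 libraries were both above the 3 others, by little for replicate 2 and by much for replicate 3. Class II genes were higher in Fgfr3CE-E12.5 replicate 3 than in replicate 2 for 9 of 10 genes, and class I genes for 7 of 23, beside 48.5% of all genes. The arms thus ran in opposite order between the Fgfr3CE-E12.5 libraries for most genes, whereas in Dlx5CE-E12.5 cells both had replicate 1 highest for most genes.

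**Figure D5:**
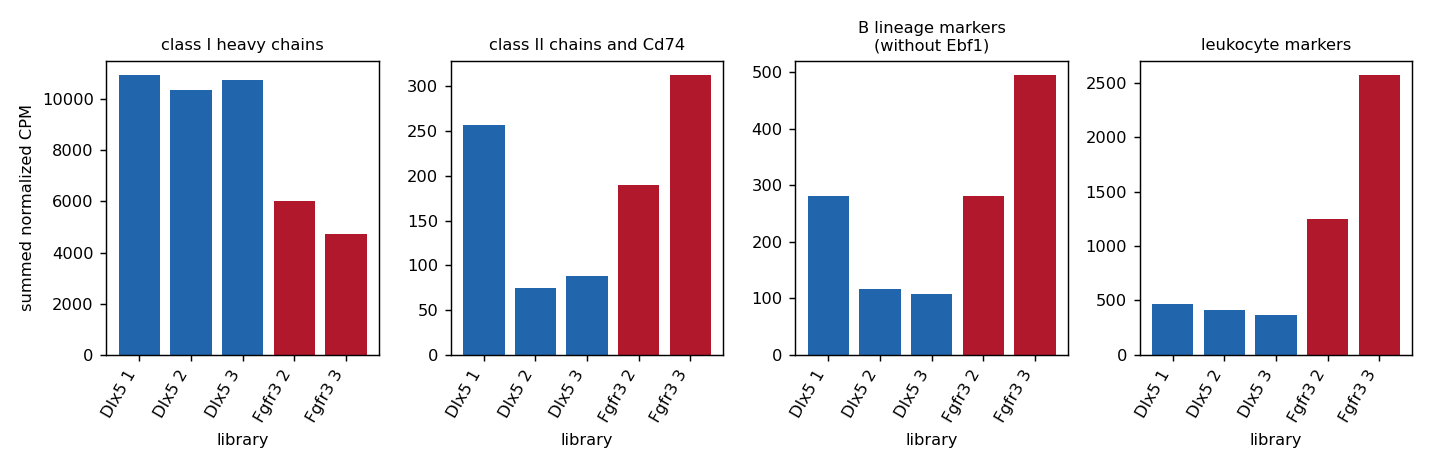
Summed normalized CPM (y axes, from 0) in each library (x axes) for class I heavy chains, for class II chains with Cd74, for B lineage markers without Ebf1 (the whole list, with Ebf1, is lower in the Fgfr3CE-E12.5 libraries) and for leukocyte markers, blue for Dlx5CE-E12.5 and red for Fgfr3CE-E12.5. Class I is high in all 3 Dlx5CE-E12.5 libraries, whereas class II sums and B lineage sums without Ebf1 are high in Dlx5CE-E12.5 replicate 1 and both Fgfr3CE-E12.5 libraries.

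H2-Ke6, the dehydrogenase gene, was at 3.39, 4.90 and 9.51 normalized CPM in Dlx5CE-E12.5 and 22.5 and 31.4 in Fgfr3CE-E12.5 libraries. It was called higher in Fgfr3CE-E12.5 cells, with a log2 fold change of 2.19 (SE 0.42, adjusted p = 0.00542 by edgeR). Like H2-Q2, it passed the filter only through the Fgfr3CE-E12.5 libraries. Of its 50-base windows 70.5% occur also in Gm20427 or another gene, so the counts of the gene itself are uncertain. With H2-Ke6, 3 of the 27 genes that passed the filter were called higher in Fgfr3CE-E12.5 and 4 higher in Dlx5CE-E12.5 cells, or 11.1% and 14.8%, beside the 16.4% and 13.1% of all genes.

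Other genes of the pathway were read by list. Beside these counts, 13.1% of all genes were called higher in Dlx5CE-E12.5 and 16.4% higher in Fgfr3CE-E12.5 cells. Of 8 loading and trimming genes, 2 were called higher in Dlx5CE-E12.5 cells and 0 higher in Fgfr3CE-E12.5 cells, with a median log2 fold change of -0.70. They were Sppl2a, an intramembrane protease that degrades the remnant of the invariant chain (-1.57, adjusted p = 0.000236 by edgeR), and Erap1, which trims peptides in the endoplasmic reticulum (-1.12, adjusted p = 0.00326). Of 15 constitutive proteasome and activator genes, 1 was called in each direction and the median was -0.05. Psme3, the PA28 gamma activator of the nucleus, was higher in Fgfr3CE-E12.5 cells (3.04), and the subunit gene Psma3 lower (-1.45).

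Of 6 class I-like genes, 4 passed the filter, of which 3 were called higher in Dlx5CE-E12.5 cells and 0 the other way. Their median log2 fold change was -1.07, and 13.1% of all genes were called higher in Dlx5CE-E12.5 cells. Fcgrt, which encodes the neonatal Fc receptor that pairs with beta-2-microglobulin, was at 799, 825 and 875 normalized CPM in Dlx5CE-E12.5 and 346 and 313 in Fgfr3CE-E12.5 libraries, with a log2 fold change of -1.34 (SE 0.15, adjusted p = 0.000577 by edgeR). Mr1, which presents vitamin B metabolites, had a log2 fold change of -1.09, and Cd1d1, which presents lipids, of -1.05. The 2 that failed the filter had higher means in Fgfr3CE-E12.5 cells and were not called. Ulbp1 had a log2 fold change of 0.74 at the lower filter (adjusted p = 0.328), and Raet1e, which was not tested, had 0 counts in each Dlx5CE-E12.5 library and 19 and 32 in the Fgfr3CE-E12.5 libraries.

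Among 20 regulators of the MHC genes, 2 were called in each direction, with a median log2 fold change of -0.43. Of all genes, 13.1% were called higher in Dlx5CE-E12.5 and 16.4% higher in Fgfr3CE-E12.5 cells, so calls were not enriched among the regulators. Rfxap, a subunit of the RFX complex that binds the X box, went from 17, 32 and 14 counts in Dlx5CE-E12.5 to 1334 and 2131 in Fgfr3CE-E12.5 libraries (log2 fold change 5.02, SE 0.47, adjusted p = 0.000284 by edgeR). Nfya, a subunit of the factor that binds the Y box, was at 24.3, 30.3 and 26.5 against 4.19 and 4.84 normalized CPM (-2.58, adjusted p = 0.000188). The genes of the other NF-Y subunits went the other way, within the fold threshold. Nfyb was at 0.51 (adjusted p = 0.0382 by edgeR) and Nfyc at 0.46 (adjusted p = 0.0451). Rfxap passed the filter only through the Fgfr3CE-E12.5 libraries, and Nfya only through the Dlx5CE-E12.5 libraries. Irf1, an interferon-induced activator of class I genes, was lower in Fgfr3CE-E12.5 cells (-1.14, adjusted p = 0.0123).

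Class II compartment genes gave 1 call, higher in Fgfr3CE-E12.5 cells, among the 6 that passed the filter, where 16.4% of all genes were. Ctss, the cathepsin that cleaves the invariant chain in antigen-presenting cells, was at 15.7, 15.7 and 12.4 normalized CPM in Dlx5CE-E12.5 and 40.4 and 69.0 in Fgfr3CE-E12.5 libraries (log2 fold change 1.90, SE 0.25, adjusted p = 0.00115 by edgeR). Unlike Cd74, it was not raised in Dlx5CE-E12.5 replicate 1. None of the 6 costimulation genes passed the filter. Cd86 had 174, 74 and 57 counts in Dlx5CE-E12.5 and 402 and 598 in Fgfr3CE-E12.5 libraries, and at the lower filter its log2 fold change of 1.04 did not pass (adjusted p = 0.0908).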

How the data were processed

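Reads were aligned by the authors to mm10, and the deposited file holds counts per gene without normalization. The submitters' processing notes name TopHat2 2.0.13, Bowtie2 2.2.1, HTSeq and DESeq2 without roles, and the methods name SMART-Seq v4 and Nextera XT libraries. The depth-normalized and rlog tables were not used here. Symbols, gene types and coordinates came from GENCODE M21 on GRCm38, where 29965 of the identifiers matched and 76 did not.

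The fit used edgeR 4.0.16 (R 4.3.3; TMM, quasi-likelihood test, lineage as the only term) over protein-coding genes and reporters reaching 10 CPM in 2 or more of the 5 libraries, with Benjamini-Hochberg adjustment over all 10088 genes tested. Genes that failed this filter were read from the same fit at 1 CPM. Normalized CPM use TMM factors, and the SE was derived from the log2 fold change and its F statistic. Transcript windows of 50 and 150 bases were compared across all annotated transcripts. Every gene of the rule was reported. Other pathway lists gave values for up to 3 called genes with the largest change. Genes, lists and rules were chosen with earlier results of these data known. Cd86, Ulbp1, Raet1e, Nfyb, Nfyc, Sox9, Col2a1 and the single B lineage and dendritic markers were named after their values were seen.

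No pair of libraries of a group agreed within sampling noise (chi-square per degree of freedom 26.3 to 301). At these depths the number of libraries limits precision, and p-values measure the spread between pools. On simulated data 197 changed genes were called and 0 unchanged ones, over 9796 genes. Alternatives covered DESeq2 1.42.0, GC and length trends removed by loess before the edgeR fit, other scalings, filters and thresholds, and leaving out each library.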

Additional observations from a re-analysis of the deposited data

Results flagged for a closer look

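The 6 H2 features of the counts file that are annotated as pseudogenes entered no comparison above, yet each held counts above the floor of 3. H2-K2 had 145, 144 and 143 counts in Dlx5CE-E12.5 and 3298 and 3741 in Fgfr3CE-E12.5 libraries, and in a fit at the lower filter its log2 fold change was 3.41 (SE 0.20, adjusted p = 4.29e-05 by edgeR). H2-Bl had 6, 4 and 4 against 92 and 94 counts (log2 fold change 3.13, adjusted p = 0.00125). H2-Ea-ps had 153, 12 and 25 counts against 3 and 34, highest in Dlx5CE-E12.5 replicate 1 like most class II genes, and was not tested. H2-Q5 had 159 to 245 counts in Dlx5CE-E12.5 and 747 and 587 in Fgfr3CE-E12.5 libraries (log2 fold change 0.64, adjusted p = 0.0553). H2-T-ps had 869 to 1254 against 1185 and 1206 counts (log2 fold change -0.93, adjusted p = 0.00230). H2-T10, which shares sequence with H2-T22, had 615 to 961 against 1084 and 818 counts (log2 fold change -0.80, adjusted p = 0.0174).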

How the results depend on the processing

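The sign of a called gene did not change under any alternative run. Among uncalled ones, with library size alone Psme1 was at 0.16, Psme2 at 0.059 and Psmb9 at 0.023, with the length trend removed Nlrc5 was at 0.16, and with the replicate block Psme1 was at 0.078, Nlrc5 at 0.10, Psme2 at 0.0097 and Psmb9 at 0.14. On leaving out a library Psme1 ranged from -0.13 to 0.11, Psme2 from -0.26 to 0.075, Psmb9 from -0.37 to 0.13 and Nlrc5 from -0.44 to 0.10. Genes called over all genes tested were 1653 higher in Fgfr3CE-E12.5 and 1318 higher in Dlx5CE-E12.5, against 2517 and 2363 with no fold threshold and 1011 and 659 when the test was against a 2-fold change. Leaving out 1 library gave 997 to 1680 and 1029 to 1465, the lowest former count without Fgfr3CE-E12.5 replicate 3. MHC and antigen processing genes called higher in Dlx5CE-E12.5 were 4, all in class I, against 1 with library size alone, 10 with no fold threshold, 0 against a 2-fold change, 7 after removing the GC trend, 8 after removing the length trend and 1 to 5 on leaving out a library. Those called higher in Fgfr3CE-E12.5 were 3, of which 2 in class I, against 0 to 6 and 0 to 2 on leaving out a library. Without an Fgfr3CE-E12.5 library H2-Q2 and H2-Ke6 fail the filter. Class I gave 1 against a 2-fold change or after removing either trend. Class II gave 0 in each direction, and 0 to 3 higher in Fgfr3CE-E12.5 on leaving out a library. With the shared replicate numbers as a replicate block, which drops Dlx5CE-E12.5 replicate 1 from the contrast, 6 genes were called higher in Fgfr3CE-E12.5, 3 of them class II. The numbers do not pair the samples (correlation 0.05), as they come from different pools. Library size alone raised the share of calls higher in Fgfr3CE-E12.5 from 55.6% to 66.3%. The cause of these changes was not tested. With 3 and 2 libraries, and lineage tied to the sequencing run, differences as small as those of Nlrc5, Psmb9, Psme1 and Psme2 were not resolved.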
